A study of Mus musculus with 8 samples.

Results

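Microglia that had returned to the brain after depletion, called repopulating microglia, were compared with wild-type microglia by RNA sequencing. The members were 5 of the 8 libraries of the series, 3 of repopulating microglia and 2 of wild-type microglia, chosen by their labels, and the other 3 were bone-marrow macrophages. The strain label is DTR for wild-type microglia and DTRmg for repopulating microglia and bone-marrow macrophages, so that strain label and group cannot be told apart. By the protocol text, which is the same on all 8 samples and thus also on wild type, mice had 2 mg of tamoxifen subcutaneously on each of postnatal days 12 and 14 and, to deplete microglia, 500 ng of diphtheria toxin into the peritoneum 3 times. No other age, no time since depletion and no promoter driving the toxin receptor is given in the labels. Cells were freed from the tissue with papain, enriched on Percoll and sorted by flow cytometry. Whether replicates came from different animals is not stated in the labels, and p-values here cover only the spread of these samples, some of which may be technical.

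Microglia, the macrophages that live in the brain tissue, renew themselves locally, depend on signals through the CSF1 receptor, and can refill the brain from few surviving cells after depletion. A cell that grows or divides needs ribosomes, energy and membrane lipids. A cell that settles among others also needs adhesion molecules, a cytoskeleton, and the channels and carriers that set its ion and nutrient balance. Genes of these 4 themes, metabolism, translation, adhesion and ion transport, are described here together with sugar-modifying enzymes, the proteasome, protein folding and autophagy.

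Values are normalised counts: reads per gene that the authors had scaled with 1 factor for each library. Total reads in genes were between 5918944 and 9523997 in the 5 libraries. A difference is repopulating minus wild-type microglia on the log2(normalised count + 1) scale, given with its standard error, and the scale understates changes of genes with low counts. A gene is said to have risen or fallen where limma, fitted over all 8 libraries in 3 groups, gave an adjusted p below 0.05 (Benjamini-Hochberg over all 11126 tested genes). In that fit 979 genes, 8.80%, passed: 553 were higher (4.97%) and 426 lower (3.83%) in repopulating microglia. The median difference over all tested genes was -0.02. With each library scaled to the same total the median was -0.13, and the split became 435 higher and 721 lower. Groups did not overlap in 40.7% of tested genes. Genes named below as risen or fallen had to meet that condition, save Csf3r, Rpl7a, Fau and Eif3f. Its being met is thus no further support for them.

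Repopulating replicate 3 stood apart from replicates 1 and 2. Log2 differences between replicates 1 and 2 had an SD of 0.498 across genes, against 0.857 between 1 and 3 and 0.987 between 2 and 3. Wild-type replicates differed with an SD of 0.455 and bone-marrow macrophages with SDs of 0.392 to 0.418. The fit over 8 libraries pools these spreads. A fit to only the 5 libraries compared passed 82 genes (0.737%), all of them among the 979. Without repopulating replicate 3, the fit over the remaining libraries passed 2941 genes (26.4%), and these held all 979. Without wild-type replicate 1 or 2 the fit passed 38 or 75 genes as higher and 29 or 72 as lower. Wild type is then a single library, assumed to vary as the other groups do, in these and all later values without a wild-type library. Xist, the transcript of the inactive X chromosome, was at 532.1 and 603.9 normalised counts in the wild-type libraries, against 705.5, 0 and 595.5 in repopulating replicates 1 to 3. Summed Y-linked transcripts were at 0 in both wild-type libraries and at 1.89, 1086 and 274.1 in the repopulating ones, so replicate 3 held both kinds. Repopulating replicates 1 and 2 thus differed in sex and came from different animals. Sex was not matched between the groups, and its part in the differences was not tested. Rn45s, the ribosomal RNA precursor, took 2.16% of the normalised counts of wild-type replicate 1 and 0.106% to 0.219% in the other 4.

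All 10 defining microglia markers were detected, with summed levels of 511548 and 480532 in wild-type and 322061 to 380905 in repopulating microglia, and 4 of the 10 fell. Markers of other cells were not equal between the groups. The 17 markers of neutrophils and their precursors in the table summed to 33509 and 31043 normalised counts in wild-type microglia and to 5517 to 6732 in repopulating microglia, where 14 of 15 tested fell and Csf3r rose. Csf3r alone was at 2125 and 1768 in wild-type and at 3382, 2872 and 4639 in repopulating replicates 1 to 3. It made up a large part of the repopulating sums, so these understate the fall of the other markers. Blood monocyte markers, 9 in the table, summed to 7453 and 5009 against 649.6 to 2093, and 6 of 9 fell. T and natural killer cell markers summed to 621.9 and 122 against 41.5 to 62, and 4 of 5 tested fell. B cell and plasma cell markers summed to 401.8 and 360.9 against 63.5 to 190, and 1 of 4 tested fell. Markers of border-associated macrophages, which line the vessels and meninges of the brain, went the other way in part of the libraries, at 970.2 and 1467 in wild-type and 2108, 2773 and 943.3 in repopulating replicates 1 to 3, with 1 of 9 tested higher and 1 lower. The border-associated macrophage sum was 9169 to 11111 in bone-marrow macrophages. F13a1 counts in this list and in that of blood monocytes. It was at 343 and 464.7 in wild-type and at 95.4, 149.1 and 92.1 in repopulating replicates 1 to 3. Endothelial markers summed to 530 and 839.8 against 258.8 to 665.7 with none called. No marker of these lists was at 0 in all 5 libraries. In such bulk samples fewer cells of a type and less RNA per cell cannot be told apart, and the part of these cells in the differences given below was not tested.

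**Figure D1:**
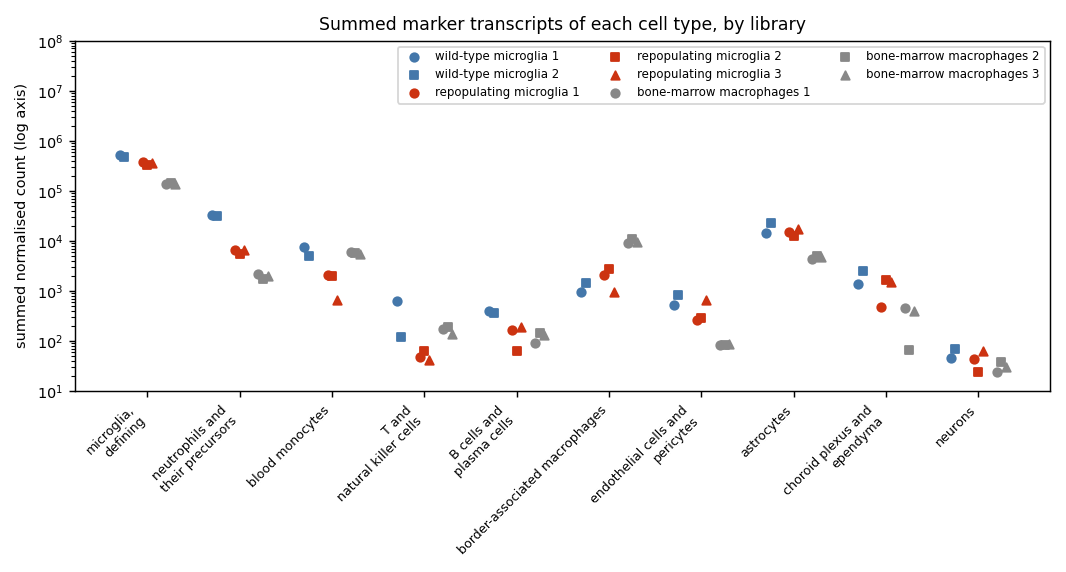
Summed normalised counts of marker lists (vertical log axis) for each cell type (horizontal axis), 1 point per library, with colour for the group and shape for the replicate. Neutrophil markers sum to 33509 and 31043 in the 2 wild-type libraries and to at most 6732 in the 3 repopulating ones. Csf3r, which rose, is in that sum at 2872 to 4639 in the repopulating libraries.

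Translation was the theme whose calls all lay in 1 direction. Of 342 tested, 49 rose and none fell, 14.3% against 8.80% of all genes. Most of these, 34, were proteins of the cytoplasmic ribosome, the machine that makes protein from messenger RNA. They were 42.0% of the 81 such genes tested. In the other translation lists, given below, 0% to 13% were called, so the share of the theme rests on the ribosomal proteins. Of 48 large-subunit genes 24 rose (median 0.94), and of 33 small-subunit genes 10 rose (median 0.89), against a median of -0.02 over all tested genes. All 81 differences were above 0, from 0.04 to 1.35, and the groups did not overlap for 62 of them, where 40.7% of all tested genes had no overlap. With libraries scaled to equal totals the medians were 0.83 and 0.78.

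Messenger RNAs of ribosomal proteins and of many translation factors are known to begin with a run of pyrimidines (C and T in the DNA), through which mTOR signalling controls their translation. The stretch from 30 bases before to 20 bases from the RefSeq transcript start is shown for 5 genes that rose and have such a run there, and for a mitochondrial ribosomal protein gene that has none. These were chosen to show that feature. Each is written 5′ to 3′ on the gene's own strand (RefSeq, build GRCm38.p6), with capitals for an unbroken run of at least 10 C or T. In order the stretches lie at chr9:64173357-64173406 (plus strand), chr2:26910777-26910826 (plus), chr4:86857348-86857397 (minus), chr19:6057917-6057966 (plus), chr7:108934385-108934434 (plus) and chr19:45006423-45006472 (minus).
Rpl4: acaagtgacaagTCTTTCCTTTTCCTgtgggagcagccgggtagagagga
Rpl7a: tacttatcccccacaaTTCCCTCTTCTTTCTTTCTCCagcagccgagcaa
Rps6: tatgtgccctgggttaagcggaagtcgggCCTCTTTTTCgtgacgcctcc
Fau: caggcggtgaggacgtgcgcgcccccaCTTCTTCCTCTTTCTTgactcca
Eif3f: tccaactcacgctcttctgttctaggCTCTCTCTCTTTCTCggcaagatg
Mrpl43: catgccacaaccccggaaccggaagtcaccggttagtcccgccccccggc

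Annotated starts are not exact, so a run was counted anywhere from 50 bases before to 50 after the start. Only the strand of the gene was read. A run of at least 10 stood in 41 of 60 ribosomal protein genes with an entry (68.3%). It stood in 12 of 64 mitochondrial ribosomal protein genes (18.8%), in 13 of 54 initiation, elongation and termination factor genes (24.1%) and in 16.1% of the 8437 tested genes with an entry. Over all 32851 windows of the table the share was 18.1%. Among ribosomal protein genes the share was 66.7% in the 24 that rose and 69.4% in the 36 that did not pass. Of the 5 initiation, elongation and termination factor genes that rose and have an entry, 3 held a run (60.0%). These shares are descriptions of few genes, and no difference between them was tested.

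Rpl4, a large-subunit protein (GRCm38 chromosome 9, 64173375 to 64178666, plus strand), was at 6134 and 5192 normalised counts in the wild-type libraries, against 12700, 12901 and 10355 in repopulating replicates 1 to 3. All 3 repopulating libraries lay above both wild-type libraries, with a difference of 1.08 ± 0.15 (limma adjusted p = 0.00652). Rps15, of the small subunit (chromosome 10, 80292453 to 80294114, plus strand), was at 5026 and 4176 against 10554, 10145 and 7530. Replicate 3 was the lowest repopulating library for both genes, and Rps15 differed by 1.02 ± 0.18 (limma adjusted p = 0.0137). Rpl11 and Rps6 rose by 1.05 and 0.91, each with replicate 3 nearest to wild type. Bone-marrow macrophages were at 14616 to 15226 for Rpl4 and at 7447 to 8494 for Rps15.

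Summed over the large-subunit genes, the repopulating libraries 1 to 3 stood at 2.31, 2.28 and 1.39 times the wild-type mean, where the wild-type libraries themselves were at 1.10 and 0.905. Border-associated macrophage markers were likewise higher in repopulating replicates 1 and 2 than in replicate 3, as given above, and their part was not tested. Without repopulating replicate 3, 46 of 48 large-subunit and 32 of 33 small-subunit genes passed as higher, with medians of 1.20 and 1.13. Of all tested genes 26.4% passed in that fit, in either direction. With limma none of the 81 passed without wild-type replicate 1 or 2 or in the fit to the 5 libraries, while 65, 37 and 58 of them had an unadjusted p under 0.05 there and edgeR and DESeq2 over all 8 libraries passed 49 and 68. In the fit to the 5 libraries the 4 named genes had limma adjusted p-values from 0.0674 to 0.119. Of the 81 genes, 8 passed without repopulating replicate 1, 22 without replicate 2, and 18 to 21 without 1 of the bone-marrow macrophage libraries. Ribosomal protein genes have many near-identical copies, so that reads may be split between a gene and its copies in a way the labels do not describe.

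Mitochondrial ribosomal proteins, which build the separate ribosome of that organelle, did not share the pattern in numbers. None of 73 passed in either direction with limma (9 at an unadjusted p under 0.05) or edgeR, 2 passed with DESeq2, and their median was -0.07. Mrpl43 was at 642.2 and 467.7 in wild-type and at 477.9, 580 and 483.8 in repopulating microglia, and the groups overlapped. Mrpl52 was at 382.5 and 353.8 against 552.5, 553.5 and 383.6 (0.41 ± 0.19, limma adjusted p = 0.201). Without repopulating replicate 3, 11 of the 73 passed as higher, where 1682 of all 11126 tested genes did. The difference between the 2 kinds of ribosome was not itself tested.

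**Figure D2:**
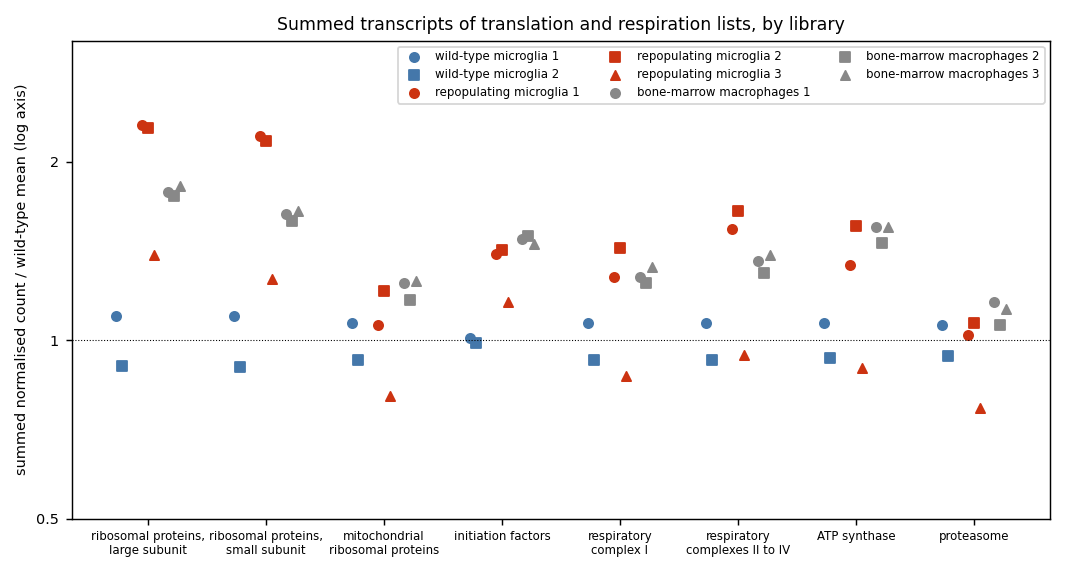
Summed normalised count of 8 gene lists in each library divided by the wild-type mean (vertical log axis), with colour for the group and shape for the replicate. Large-subunit ribosomal proteins are at 2.31, 2.28 and 1.39 in repopulating libraries 1 to 3, while for the mitochondrial ribosome, the respiratory complexes, ATP synthase and the proteasome replicate 3 lies at 0.767 to 0.943, near or under both wild-type libraries.

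Beyond the ribosome itself, 6 of 46 initiation factor genes and 2 of 20 elongation and termination factor genes rose, and none fell. These shares of 13% and 10% were near the 8.80% of all genes. Eif4b, which helps the helicase that opens the start of a messenger RNA (chromosome 15, 102073773 to 102097173, plus strand), was at 1007 and 1190 in wild-type and at 2745, 2832 and 2853 in repopulating microglia. The repopulating libraries lay close together, replicate 3 included, and the difference was 1.36 ± 0.12 (limma adjusted p = 0.000959, and 0.0287 in the fit to the 5 libraries). Pabpc1, which binds the poly(A) tail, was at 4442 and 4636 against 8958, 8529 and 8579 and rose by 0.94 ± 0.12 (limma adjusted p = 0.00435). Its groups were likewise far apart for their spread. Eef2, which moves the ribosome along by a codon (chromosome 10, 81176631 to 81182498, plus strand), was at 13589 and 13758 against 35394, 36879 and 26617. It rose by 1.25 ± 0.18 (limma adjusted p = 0.00652), and replicate 3 was the lowest repopulating library, as for the ribosomal proteins named above. Eif3k, a subunit of the factor that brings the small subunit to the messenger, and Eef1g, of the factor that delivers transfer RNAs, rose by 0.98 and 0.75.

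Ribosome assembly had 3 of 54 genes higher and none lower (5.56%, under the 8.80% of all genes). Ncl (nucleolin), which acts in ribosomal RNA synthesis and folding, was at 555.6 and 629.4 against 1262, 1195 and 1727. Here replicate 3 was the highest repopulating library, bone-marrow macrophages were higher still at 2787 to 2922, and the difference was 1.22 ± 0.17 (limma adjusted p = 0.00619). Taf1d, of the RNA polymerase I start complex, was at 36.3 and 41.7 against 167.2, 171.2 and 93.3 and rose by 1.81 ± 0.28 (limma adjusted p = 0.00881). Pes1, needed for large-subunit maturation, rose by 0.77. Only 2 of 39 aminoacyl-tRNA synthetases rose (5.13%), Qars by 0.69 and Iars2, the mitochondrial isoleucine enzyme, by 0.65. In mTOR and stress control 2 of 29 rose (6.9%, under the 8.80% of all genes). Eif4ebp2, an inhibitor of cap binding, rose by 0.68, and Eif2ak2, a kinase that double-stranded RNA activates and an interferon gene, by 1.82. Of the 12 named calls beyond the ribosomal proteins, Eif4b and Eif2ak2 passed in the fit to the 5 libraries and without wild-type replicate 1, and these with Pabpc1 and Ncl without wild-type replicate 2. Without repopulating replicates 1, 2 and 3, 8, 10 and 12 passed, and 9 without any 1 bone-marrow macrophage library.

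**Figure D3:**
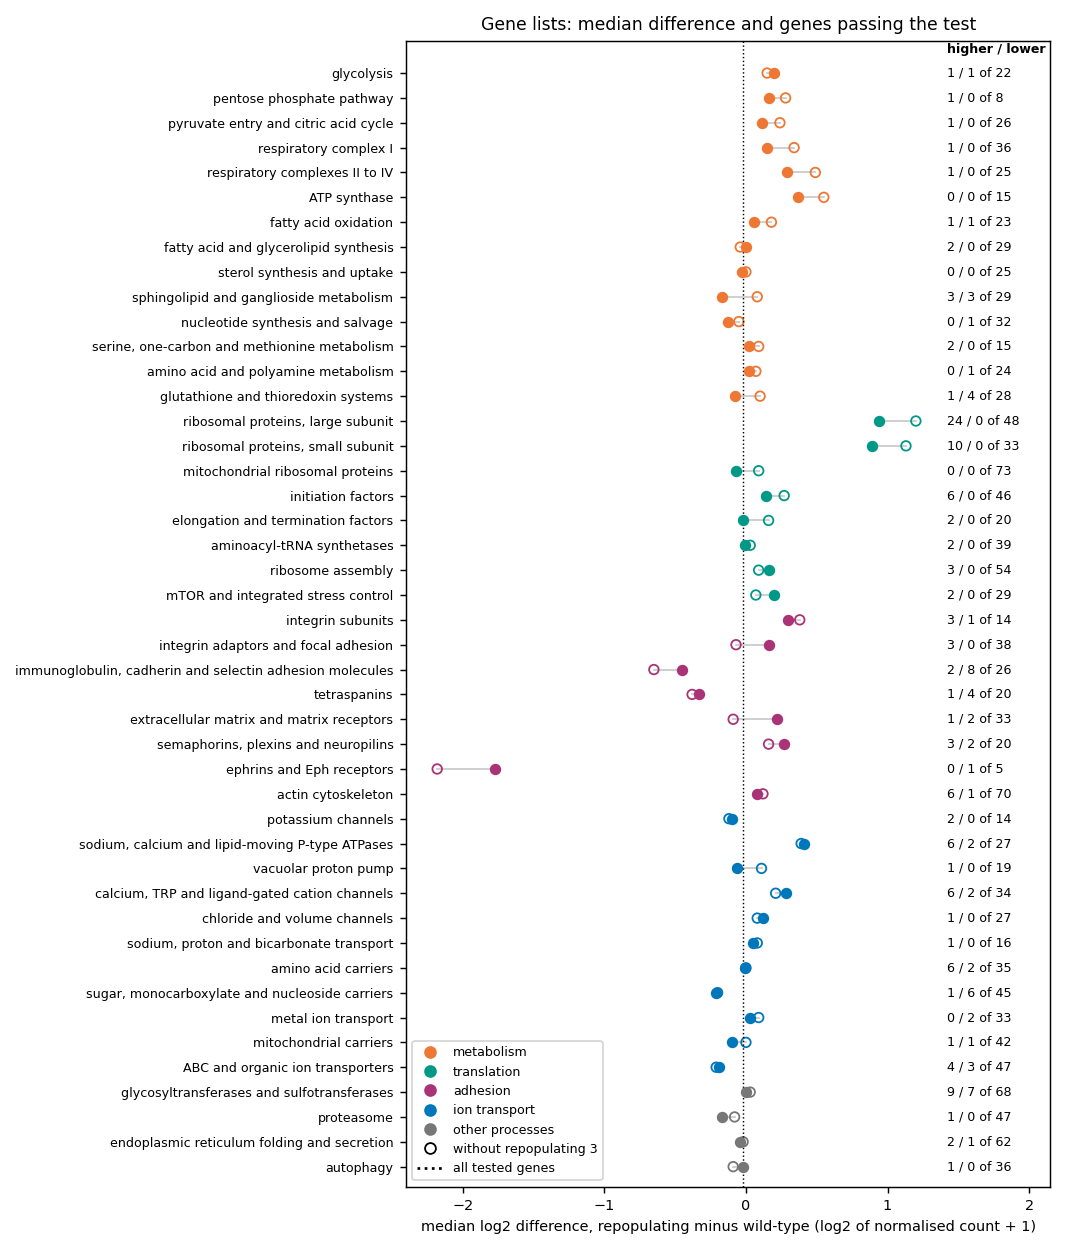
Median log2 difference of each gene list (horizontal axis, repopulating minus wild-type), filled for all libraries and open without repopulating replicate 3, with counts of genes higher and lower of those tested at the right. The ribosomal protein lists stand at 0.94 and 0.89, against -0.02 for all tested genes (dotted line).

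Metabolic genes passed about as often as other genes did: 14 of 337 rose and 11 fell, 7.42% against 8.80% of all genes. Central carbon metabolism gave single genes. Gpi1, the glycolytic isomerase of glucose phosphate (chromosome 7, 34201330 to 34230336, minus strand), was at 2194 and 1959 against 4901, 5309 and 3238. All 3 repopulating libraries were higher, with a difference of 1.08 ± 0.21 (limma adjusted p = 0.0186). Pfkp, a phosphofructokinase, was at 111.1 and 69.1 against 35.9, 47.2 and 26.5 and fell by 1.28 ± 0.29 (limma adjusted p = 0.0305). So of 22 glycolysis genes 1 rose and 1 fell. Pgls, the lactonase of the pentose phosphate pathway, rose by 0.89.

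The count of respiration genes turned on repopulating replicate 3. Of 76 genes for complexes I to IV and ATP synthase, 2 rose and none fell (2.63%, under the 8.80% of all genes). Ndufa10, a subunit of complex I, was at 265 and 284.7 against 428.8, 444.2 and 441.1, with all repopulating libraries close together, and rose by 0.67 ± 0.12 (limma adjusted p = 0.0163). Cox7a2l, which helps join respiratory complexes into larger assemblies, was at 2624 and 2347 against 5912, 5344 and 3311 and rose by 0.92 ± 0.23 (limma adjusted p = 0.0411). The abundant ATP synthase subunits overlapped between groups: Atp5b was at 4576 and 4292 against 5367, 6134 and 4364, and Atp5a1 at 4787 and 4496 against 5413, 6667 and 4102. Without repopulating replicate 3, 43 of the 76 passed, all higher, against 26.4% of all tested genes in either direction. The median of the 76 moved from 0.23 to 0.45. With equal totals the median over all 3 replicates was 0.12. Of the 5 named calls of carbon metabolism and respiration none passed without wild-type replicate 1 or 2 or in the fit to the 5 libraries (adjusted p = 0.104 to 0.163 there). Without repopulating replicates 1, 2 and 3, 1, 3 and 5 passed, and 2 passed without any 1 bone-marrow macrophage library.

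In lipid metabolism 2 of 29 genes of fatty acid and glycerolipid synthesis rose and none fell (6.90%, under the 8.80% of all genes), with a list median of 0.00. Acaca, the acetyl-CoA carboxylase that commits carbon to fatty acids (chromosome 11, 84129672 to 84401651, plus strand), was at 55.6 and 49.8 against 133.2, 132.8 and 142.8. The repopulating libraries agreed closely, and the difference was 1.36 ± 0.16 (limma adjusted p = 0.00288). Acly, which makes cytosolic acetyl-CoA from citrate, was at 1199 and 1490 against 2263, 2220 and 2399 and rose by 0.78 ± 0.13 (limma adjusted p = 0.0122). None of 25 sterol genes passed (6 at an unadjusted limma p under 0.05, 0 with edgeR and 1 with DESeq2). In fatty acid oxidation Hadha, of the mitochondrial trifunctional enzyme, rose by 0.61. Slc25a20, which carries acylcarnitines into mitochondria, was at 152.8 and 158.6 against 89.7, 78.2 and 89.8, with every repopulating library lower, and fell by 0.85 ± 0.16 (limma adjusted p = 0.018).

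Among smaller pathways, Pnp, a purine salvage enzyme, fell by 1.01 as the only 1 of 32 nucleotide genes (3.12%, under the 8.80% of all genes). Acaca was the only 1 of the 5 named genes of lipid and purine metabolism that passed without wild-type replicate 1 (adjusted p = 0.0366), and Acaca and Acly passed without wild-type replicate 2. None passed in the fit to the 5 libraries (adjusted p = 0.0562 to 0.125), and 4, 5 and 5 passed without repopulating replicates 1, 2 and 3. Without bone-marrow macrophages 1, 2 and 3, 4, 5 and 5 passed.

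Of 28 genes of the glutathione and thioredoxin systems, which keep cells reduced, 4 fell and 1 rose (17.9%, against 8.80% of all genes), and the list median was -0.08. Mgst1, a membrane glutathione transferase (chromosome 6, 138140316 to 138156755, plus strand), was at 284.2 and 144.4 in wild-type and at 25.5, 22.1 and 9.21 in repopulating microglia. All repopulating libraries were far below wild type, and the difference was -3.47 ± 0.48 (limma adjusted p = 0.00593). Gsr, glutathione reductase, was at 457.3 and 326.4 against 179.5, 196.3 and 153.2 and fell by 1.13 ± 0.19 (limma adjusted p = 0.0129). Gstm1, a soluble transferase, fell by 1.27. The neutrophil and monocyte marker sums fell in the same libraries, and their part in these falls was not tested. Without wild-type replicate 1 none of the 3 calls held (adjusted p = 0.0861 to 0.21), nor in the fit to the 5 libraries (0.0515 to 0.126). Gstm1 was also lost without repopulating replicate 1 (0.0645) and without bone-marrow macrophages 2 or 3 (0.0503 and 0.0516).

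Enzymes that build sugar chains on lipids and proteins included 2 genes that passed in both fits. Of 68 glycosyltransferases and sulfotransferases 9 rose and 7 fell (23.5%, against 8.80% of all genes). St8sia1, which adds the second sialic acid that makes ganglioside GD3, was at 36.3 and 27.5 in wild-type and at 541.2, 422.1 and 267.2 in repopulating microglia. Every repopulating library was several times above both wild-type libraries, and bone-marrow macrophages were at 49.8 to 74.4. Its difference was 3.60 ± 0.32 (limma adjusted p = 0.000959, and 0.016 in the fit to the 5 libraries). Chst2, which sulfates N-acetylglucosamine in glycans, was at 40.6 and 37.6 against 310.7, 268.6 and 275.3. Its repopulating libraries agreed closely, and the difference was 2.83 ± 0.22 (limma adjusted p = 0.000703, and 0.00743 in the fit to the 5 libraries). Chst1, a galactose sulfotransferase of keratan sulfate (chromosome 2, 92599707 to 92615250, plus strand), was at 228.7 and 91.5 against 967.2, 848.6 and 753.3 and rose by 2.55 ± 0.36 (limma adjusted p = 0.0062).

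Of 29 sphingolipid and ganglioside genes 3 rose and 3 fell (20.7%, against 8.80% of all genes). B4galnt1, which turns GD3 and GM3 into longer gangliosides, was at 485.1 and 432.1 against 657.4, 695.1 and 844.3 and rose by 0.67 ± 0.15 (limma adjusted p = 0.0321). Smpd1, the acid sphingomyelinase of lysosomes, was at 934.9 and 964.9 against 673.4, 639.1 and 725.6 and fell by 0.48 ± 0.12 (limma adjusted p = 0.0448). St8sia1, Chst2 and Chst1 passed without any 1 of the 8 libraries, and Chst1 missed the threshold in the fit to the 5 libraries (adjusted p = 0.0507). B4galnt1 and Smpd1 missed it there and without either wild-type library, repopulating replicate 1 or any 1 bone-marrow macrophage library, and Smpd1 also without repopulating replicate 2.

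Adhesion genes passed in equal numbers each way, 19 higher and 19 lower of 226 (16.8%, against 8.80% of all genes). Integrins are the paired receptors by which cells hold matrix and other cells. Itgb7, the beta chain of gut-homing and related integrins of leukocytes (chromosome 15, 102215995 to 102231944, minus strand), was at 336.6 and 184 in wild-type and at 23.6, 22.1 and 13.8 in repopulating microglia. The groups were far apart, with bone-marrow macrophages between them at 74.1 to 87, and Itgb7 fell by 3.62 ± 0.32 (limma adjusted p = 0.000959, and 0.0255 in the fit to the 5 libraries). Itga6, the alpha chain of laminin receptors (chromosome 2, 71745616 to 71858416, plus strand), was at 2037 and 2350 against 4023, 4383 and 3467 and rose by 0.85 ± 0.14 (limma adjusted p = 0.0122). Itgax (CD11c), a complement receptor chain often used to mark activated microglia, was at 437 and 402.6 against 1211, 789.6 and 903 and rose by 1.18 ± 0.18 (limma adjusted p = 0.00898). In all, 3 of 14 tested integrin chains rose and 1 fell (28.6%, against 8.80% of all genes).

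Inside the cell, 3 of 38 adaptors and focal adhesion genes rose and none fell (7.89%, near the 8.80% of all genes). Arhgef7, an exchange factor that activates Rac and Cdc42 at adhesions, was at 321.6 and 379.2 against 798.1, 642 and 738.3 and rose by 1.05 ± 0.14 (limma adjusted p = 0.00593). Its groups did not overlap, which was a condition for naming it. Parvb and Tns4, proteins of focal adhesions, rose by 0.93 and 0.91. Of these 6 integrin and adaptor calls, Itgb7 alone passed in the fit to the 5 libraries and without wild-type replicate 1, and Itgb7 and Arhgef7 passed without wild-type replicate 2. Without repopulating replicates 1, 2 and 3, 4, 5 and 6 passed, and 5 without any 1 bone-marrow macrophage library.

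Immunoglobulin, cadherin and selectin adhesion molecules had 8 of 26 genes lower and 2 higher (38.5%, against 8.80% of all genes), with a median of -0.45. Emb, an embigin adhesion protein (chromosome 13, 117208536 to 117274415, plus strand), was at 334.4 and 278.6 in wild-type and at 52.9, 50.2 and 11.5 in repopulating microglia. Every repopulating library was far below wild type, and Emb fell by 3.23 ± 0.55 (limma adjusted p = 0.0122). Ninj1, an adhesion protein that also ruptures membranes of dying cells, was at 1004 and 836.8 against 394.8, 407.3 and 463 and fell by 1.12 ± 0.16 (limma adjusted p = 0.00652). Neutrophil and monocyte marker sums were lower in the same libraries, and their part in these falls was not tested.

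Of 20 tetraspanins, which gather receptors in membrane patches, 4 fell and 1 rose (25.0%, against 8.80% of all genes). Tspan13 (chromosome 12, 36014557 to 36042500, minus strand) was at 2059 and 2028 against 833, 578.5 and 828.1. Both wild-type libraries agreed closely, and Tspan13 fell by 1.47 ± 0.19 (limma adjusted p = 0.00426, and 0.0468 in the fit to the 5 libraries). Cd151, a partner of laminin-binding integrins, and Tspan3 fell by 0.71 and 0.68. Without wild-type replicate 1 none of these 5 surface-molecule calls held (adjusted p = 0.0678 to 0.254), and Ninj1 and Tspan13 held without wild-type replicate 2. Without repopulating replicates 1, 2 and 3, 5, 4 and 5 held, and without bone-marrow macrophages 1, 2 and 3, 3, 3 and 4.

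Among matrix molecules and their receptors 1 of 33 rose and 2 fell (9.09%, near the 8.80% of all genes). Sdc3 (syndecan 3), a heparan sulfate proteoglycan of the cell surface (chromosome 4, 130792537 to 130826319, plus strand), was at 1698 and 1692 in wild-type and at 8743, 5822 and 5303 in repopulating microglia. It rose by 1.93 ± 0.21 (limma adjusted p = 0.00214, and 0.0337 in the fit to the 5 libraries), and every repopulating library was above the wild type by a wide gap. Its relative Sdc4 moved the other way, from 198.7 and 206.4 to 93.5, 103.3 and 86.4, a fall of 1.10 ± 0.20 (limma adjusted p = 0.0163). Semaphorins and plexins are guidance ligands and receptors. Plxnd1, a plexin receptor, was at 57.7 and 68.1 against 122.8, 190.4 and 150.9 and rose by 1.27 ± 0.21 (limma adjusted p = 0.0117). Sema4d, a membrane semaphorin of immune cells, rose by 0.78, while Sema4b (chromosome 7, 80186841 to 80226527, plus strand) was at 219 and 294.9 against 46.3, 33.9 and 95.6 and fell by 2.23 ± 0.39 (limma adjusted p = 0.0136). So 3 of 20 of this family rose and 2 fell (25.0%, against 8.80% of all genes). Sdc3 was the only 1 of these 5 calls to hold without either wild-type library or in the fit to the 5 libraries, and all 5 held without any 1 repopulating or bone-marrow macrophage library.

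Of 70 actin cytoskeleton genes 6 rose and 1 fell, a share of 10% that was near the 8.80% of all genes. Myo5a, a motor that carries vesicles along actin (chromosome 9, 75071015 to 75223688, plus strand), was at 50.2 and 60 in wild-type and at 233.3, 358.6 and 387 in repopulating microglia. The groups were well apart, and bone-marrow macrophages were higher still at 1325 to 1406. Myo5a rose by 2.52 ± 0.22 (limma adjusted p = 0.000959, and 0.026 in the fit to the 5 libraries). Arpc1b, of the Arp2/3 complex that branches actin, was at 1111 and 1128 against 2409, 2755 and 3784 and rose by 1.39 ± 0.19 (limma adjusted p = 0.00593). Coro1c, a coronin that acts on Arp2/3, rose by 0.87. Myo5a alone held without either wild-type library and in the fit to the 5 libraries, and all 3 held without any 1 other library.

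**Figure D4:**
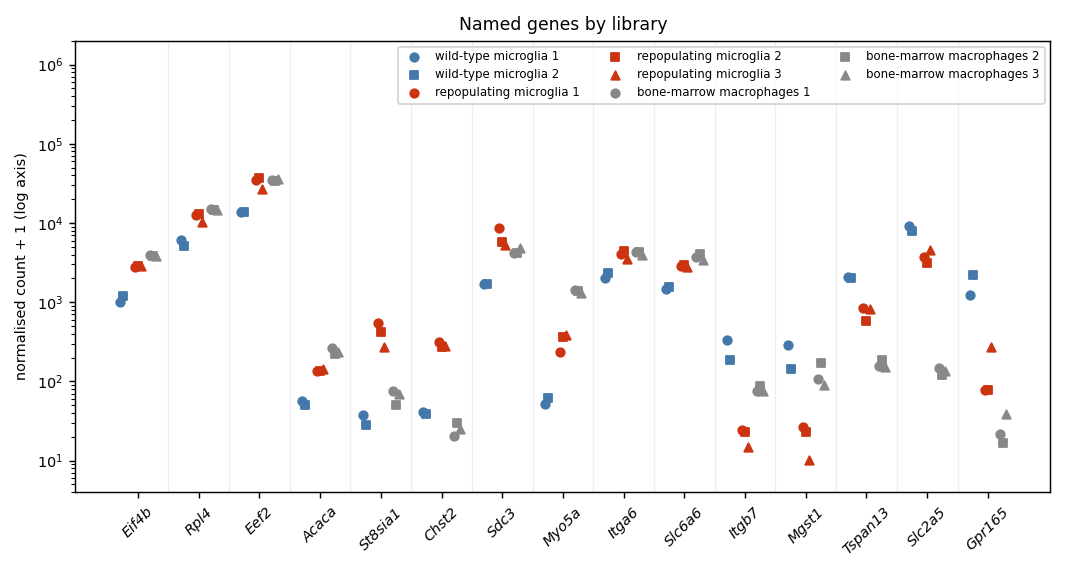
Normalised count + 1 (vertical log axis) of 15 genes (horizontal axis), 1 point per library, with colour for the group and shape for the replicate. Wild-type and repopulating libraries do not overlap for any of the 15, a condition for naming them that 40.7% of all tested genes met. Among the 15, Chst2 is at 37.6 and 40.6 against 268.6 to 310.7 and Itgb7 at 184 and 336.6 against 13.8 to 23.6.

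Ion transport genes passed in 29 cases as higher and 18 as lower of 339 (13.9%, against 8.80% of all genes). None of the 339 passed with limma in the fit to the 5 libraries, where 77 had an unadjusted p under 0.05, and edgeR and DESeq2 over all 8 libraries passed 45 and 64. P-type ATPases are pumps that move ions or lipids with ATP, and 6 of 27 rose and 2 fell (29.6%, against 8.80% of all genes). Atp13a2, a lysosomal polyamine exporter (chromosome 4, 140986873 to 141007330, plus strand), was at 591.9 and 677.2 against 1143, 1079 and 1312 and rose by 0.89 ± 0.15 (limma adjusted p = 0.0117). All repopulating libraries were above both wild-type ones. Atp8b2, a lipid flippase, was at 99.4 and 116.9 against 192.7, 211.1 and 198.1 and rose by 0.89 ± 0.15 (limma adjusted p = 0.0117). Atp2c1, the calcium and manganese pump of the Golgi (chromosome 9, 105403539 to 105527319, minus strand), was at 2726 and 2732 against 1536, 1505 and 1063 and fell by 1.02 ± 0.17 (limma adjusted p = 0.0132).

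Proton handling gave 2 genes with very uneven repopulating libraries. Shares called in their 2 lists were 5.26% and 6.25%, under the 8.80% of all genes. Atp6v0d2, the only 1 of 19 vacuolar pump genes that passed, was at 3.21 and 5.08 in wild-type and at 250.3, 515.1 and 15 in repopulating microglia. Slc9b2, a sodium and proton exchanger and the only 1 of 16 of its list that passed, was at 0 and 1.02 against 68.9, 149.1 and 4.61. Replicate 3 lay near wild type for both, and their differences were 4.66 ± 1.21 and 4.78 ± 1.22 (limma adjusted p = 0.049 and 0.046). Slc9b2 had 1 read in the wild-type libraries and 178 in the repopulating ones, a ratio of 131 with an exact 95% interval of 23.2 to 5210 for counting error only. Without either wild-type library none of these 5 pump and exchanger calls held, nor in the fit to the 5 libraries (adjusted p = 0.0811 to 0.164). Atp6v0d2 and Slc9b2 were also lost without repopulating replicate 1 or 2 or any 1 bone-marrow macrophage library, and all 5 held without repopulating replicate 3.

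Among channels, 6 of 34 calcium, TRP and ligand-gated genes rose and 2 fell, and 2 of 14 potassium and 1 of 27 chloride and volume channel genes rose. These shares were 23.5%, 14.3% and 3.7%, against 8.80% of all genes. Tpcn2, a cation channel of lysosomes (chromosome 7, 145186524 to 145284011, minus strand), was at 114.3 and 86.4 against 188, 224.3 and 236.1 and rose by 1.11 ± 0.18 (limma adjusted p = 0.0106). Trpm2, a calcium channel gated by oxidative stress, was at 113.3 and 133.2 against 259.7, 227.3 and 453.8 and rose by 1.28 ± 0.28 (limma adjusted p = 0.0277). Pkd1 (polycystin 1) was at 318.4 and 348.7 against 646, 553.5 and 954.8 and rose by 1.07 ± 0.21 (limma adjusted p = 0.0213). Replicate 3 was the highest repopulating library for all 3 of these, while it was the lowest for the ribosomal proteins named above. Kcnk6, a background potassium channel, rose by 0.65 and Ttyh2, of a family linked to chloride conductance, by 1.10. Without either wild-type library none of the 5 channel calls held, nor in the fit to the 5 libraries (adjusted p = 0.0878 to 0.16). Without repopulating replicates 1, 2 and 3, 2, 5 and 5 held, and 3 without any 1 bone-marrow macrophage library.

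Carriers of amino acids and of sugars moved in different numbers: 6 of 35 amino acid carriers rose and 2 fell, while 1 of 45 sugar, monocarboxylate and nucleoside carriers rose and 6 fell. That difference between the lists was not tested. Shares called in either direction were 22.9% and 15.6%, against 8.80% of all genes (4.97% higher and 3.83% lower). Slc6a6, the taurine carrier (chromosome 6, 91684053 to 91759066, plus strand), was at 1469 and 1540 against 2901, 2907 and 2760 and rose by 0.92 ± 0.12 (limma adjusted p = 0.00471). Slc38a1, a glutamine carrier, was at 657.1 and 724.9 against 1176, 1092 and 1160 and rose by 0.73 ± 0.12 (limma adjusted p = 0.0108). For both genes the repopulating libraries agreed closely. Slc1a5, another glutamine carrier, was at 78 and 74.2 against 193.6, 271.6 and 130.2 and rose by 1.31 ± 0.27 (limma adjusted p = 0.0222).

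Slc2a5, the fructose carrier by which microglia are often told from other macrophages (chromosome 4, 150119283 to 150144169, plus strand), was at 9067 and 8002 in wild-type and at 3686, 3092 and 4533 in repopulating microglia. Bone-marrow macrophages were at 120.9 to 144.9, and Slc2a5 fell by 1.19 ± 0.18 (limma adjusted p = 0.00743). Slc16a9, a monocarboxylate carrier, was at 63 and 77.3 against 10.4, 5.9 and 16.1 and fell by 2.68 ± 0.49 (limma adjusted p = 0.0162). Slc5a10, a sodium-coupled sugar carrier, was at 67.3 and 61 against 1.89, 1.48 and 10.4 and fell by 3.91 ± 0.75 (limma adjusted p = 0.0179). These 3 carriers were lower in all repopulating libraries, and Slc2a5 and Slc5a10 were lower still in every bone-marrow macrophage library.

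No metal ion transport gene rose and 2 of 33 fell: Slc40a1 (ferroportin), the iron exporter, with a difference of -0.89, and Slc39a12, a zinc importer, with a difference of -2.74. Of 42 mitochondrial carriers Slc25a22, for glutamate, rose by 0.83 and Slc25a20 fell as given above. Of 47 ABC and organic ion transporters 4 rose and 3 fell, among them Abca2 and Abca3, lipid pumps of lysosomes and related organelles, by 1.16 and 0.91, and Abcg3 with a fall of 1.20. Shares called were 6.06% for metal ion transport, 4.76% for mitochondrial carriers and 14.9% for ABC and organic ion transporters, against 8.80% of all genes. Of the 12 carrier and transporter calls named here and in the preceding paragraphs other than Slc25a20, none held without wild-type replicate 1 (adjusted p = 0.0765 to 0.263) or in the fit to the 5 libraries (0.0561 to 0.151), and Slc6a6 and Abcg3 held without wild-type replicate 2. Without repopulating replicates 1, 2 and 3, 7, 10 and 12 held, and without bone-marrow macrophages 1, 2 and 3, 10, 10 and 8.

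Protein turnover and folding gave few calls. The proteasome, the main protease of the cytosol, had 1 of 47 genes higher, Psme1, an interferon-inducible activator subunit, by 0.89. In endoplasmic reticulum folding and secretion 2 of 62 rose, Atf6, a sensor of unfolded protein, by 0.72 and the disulfide isomerase Pdia5 by 0.84, and Sar1a, of the vesicle coat, fell by 0.61. In autophagy Becn1, which starts the forming membrane, rose by 0.55 as the only 1 of 36. Shares called in these 3 lists were 2.13%, 4.84% and 2.78%, under the 8.80% of all genes. None of the 5 calls held without either wild-type library or in the fit to the 5 libraries (adjusted p = 0.0902 to 0.184), and 2, 3 and 5 held without repopulating replicates 1, 2 and 3 and 2 without any 1 bone-marrow macrophage library.

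Outside all lists of usual microglial genes and cell markers, genes with large differences included secreted and surface proteins. Htra3, a secreted serine protease (chromosome 5, 35652023 to 35679782, minus strand), was at 89.8 and 102.7 in wild-type and at 883.1, 1179 and 323.7 in repopulating microglia and rose by 2.85 ± 0.45 (limma adjusted p = 0.00991). Acp5, an acid phosphatase typical of osteoclasts, was at 59.8 and 46.8 against 2570, 4186 and 163.6 and rose by 4.49 ± 1.13 (limma adjusted p = 0.0445). Cd109, a surface protein with a lipid anchor, was at 0 and 1.02 against 236.1, 289.3 and 12.7. Replicate 3 was the lowest repopulating library for all 3, most of all for Acp5 and Cd109, as for Atp6v0d2 and Slc9b2 above. Cd109 had 1 wild-type read and 457 repopulating reads, a ratio of 337 with an exact 95% interval of 60.1 to 13300 for counting error only, and its limma adjusted p was 0.0172.

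In the other direction Gpr165, an orphan receptor (chromosome X, 96713441 to 96719388, plus strand), was at 1234 and 2233 against 77.4, 76.7 and 274.1 and fell by 3.81 ± 0.58 (limma adjusted p = 0.00889). Bone-marrow macrophages held 15.9 to 37.9 of it. Pglyrp1, a granule protein of neutrophils that binds bacterial walls (chromosome 7, 18871331 to 18890459, plus strand), was at 314.1 and 316.2 against 25.5, 20.7 and 15 and fell by 3.92 ± 0.27 (limma adjusted p = 0.000551). Napsa, an aspartic protease, was at 661.4 and 410.8 against 32.1, 64.9 and 25.3 and fell by 3.76 ± 0.37 (limma adjusted p = 0.00158). Neutrophil markers fell in the same libraries, and their part in these falls was not tested. Pglyrp1 and Napsa held in the fit to the 5 libraries and without any 1 library. The other 4 named calls, Htra3, Acp5, Cd109 and Gpr165, were lost without either wild-type library, Acp5 also without repopulating replicate 1 or 2 or any 1 bone-marrow macrophage library, and Cd109 also without repopulating replicate 1.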

How the data were processed

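The deposited table held signal values for 23413 genes in 8 libraries: reads per gene on which the authors had used 1 scaling factor for each library. That was read from the values, all of which (100%) were whole multiples of what 1 read is worth, within 0.01 reads, so whole reads were recovered. The submitters' processing notes name TopHat2 (2.0.10), DESeq (1.14.0), HTSeq, Bowtie2 (2.1.0.0) and the build mm10, with no role for any tool, no annotation and no strand setting. The kit does not mark strand, so overlapping and antisense genes cannot be told apart. Samples were grouped by the labels' titles. The 3 bone-marrow macrophage columns, named mono, were assigned by exclusion, and no column was left unused.

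Genes reaching 10 normalised counts in 2 or more of the 5 compared libraries, 11126 in number, were tested on log2(value + 1) with limma 3.58.1 (R 4.3.3), variance trend, all 8 libraries in 3 groups, no covariates, two-sided, Benjamini-Hochberg threshold 0.05. edgeR 4.0.16 and DESeq2 1.42.0 (11 adjusted p-values NA) ran on the recovered reads as alternatives. Fits were run on simulated data in which all libraries of a gene had the same spread. That setting held no outlying library such as repopulating replicate 3, so it cannot show how the fits treat one. The 45 gene lists, 13 marker lists and the comparison were chosen with earlier results of these data known. Named genes were, in each list, up to 3 by smallest adjusted p among those called without overlap of the groups and with a higher-group mean of 50 or more (else the 2 most abundant members), and the 10 highest and 10 lowest differences at a mean of at least 100 outside usual microglial genes and markers, leaving out predicted models, small RNA genes and receptor segments; the text gives a part, and some of these genes are not reported here. Csf3r, Rpl7a, Fau and Eif3f were named after their values were seen. Coordinates are from GENCODE vM21 (GRCm38, also called mm10), 1-based, over the whole gene. Stretches at transcript starts came from RefSeq (GRCm38.p6), the first entry of each symbol. Alternatives were 2 pseudocounts, 2 filters, 2 scalings, library weights, a replicate block, the count tests, the 5 libraries alone and leaving out each library. A fit to the 5 libraries less repopulating replicate 3 was added after the data had been seen. Precision is limited by 2 and 3 libraries per group. Figures were drawn with matplotlib 3.10.9.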

Additional observations from a re-analysis of the deposited data

How the results depend on the processing

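Total reads ran from 5918944 to 9523997 in the 5 libraries, and genes below the filter on low values were not tested. Counts of calls moved with which libraries entered the fit. Over fits that left out 1 library, genes called higher ran from 38 to 1682 and lower from 29 to 1259, with the lowest counts without wild-type replicate 1 and the highest without repopulating replicate 3. Calls in the same fits ran from 2 to 125 for metabolism, 2 to 143 for translation, 3 to 99 for adhesion and 2 to 109 for ion transport.

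In the fit to only the 5 libraries, 36 genes were called higher and 46 lower, with 1 call in metabolism, 2 in translation, 5 in adhesion and 0 in ion transport. With repopulating replicate 3 also left out, a setting added after seeing the data, 1228 were higher and 924 lower, with 92, 129, 79 and 88 calls in the 4 themes in that order. Library weights, which gave repopulating replicate 3 the lowest weight of the repopulating libraries, gave 1514 higher and 1085 lower, with 96, 137, 84 and 101. DESeq2 called 966 higher and 668 lower, with 45 in metabolism, 106 in translation and 59 in adhesion. Equal totals gave 721 lower. The cause of these shifts was not tested. Other pseudocounts, filters, TMM scaling and edgeR kept all 6 counts within 1.5 times.

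No pairing of the samples by replicate number was seen, but these few libraries cannot settle it. Deviations of same-numbered libraries from their group means correlated at -0.264 to 0.263. The 2 wild-type deviations mirror each other by construction, so the wild-type values cannot show whether samples were paired. With the replicate block 439 genes were called higher and 288 lower, with 21, 70, 33 and 37 calls in the 4 themes.

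None of the 99 named calls changed sign under any alternative. Their groups had been chosen not to overlap, so leaving out libraries could not have changed a sign. Of the 99, 15 held in the fit to the 5 libraries, 11 without wild-type replicate 1, 27 without wild-type replicate 2, and 65, 83 and 99 without repopulating replicates 1, 2 and 3. Named genes that had not passed changed sign in 14 instances. Scap (0.05) was at -0.06 with equal totals, -0.08 with weights and with the block, and -0.15 to 0.20 with 1 library left out (-0.15 in the added fit). Sat1 (-0.06) was at 0.00 with edgeR, 0.13 with weights, 0.10 with the block, and -0.25 to 0.22 with 1 library left out (0.22 in the added fit). Glul (-0.13) ran from -0.30 to 0.03 and Mrpl43 (-0.10) from -0.33 to 0.13 with 1 library left out.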

Other observations

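Of the 10 highest and 10 lowest differences outside the lists of usual microglial genes and markers, 4 more genes are given here. Serpinb1a, an inhibitor of neutrophil proteases, was at 135.7 and 126.1 normalised counts in wild-type and at 6.61, 10.3 and 10.4 in repopulating microglia (log2 difference -3.73 ± 0.43, SE; limma adjusted p = 0.00256, and 0.0181 in the fit to the 5 libraries). Slpi, another protease inhibitor, was at 176.3 and 153.5 against 17, 13.3 and 6.91 (-3.71 ± 0.48, limma adjusted p = 0.00467 and 0.0287). Gpr141, an orphan receptor, was at 260.7 and 165.7 against 17.9, 7.38 and 3.46 (-4.55 ± 0.57, limma adjusted p = 0.00404 and 0.0423). Each of these 3 calls held in 7 of the 8 fits that left out 1 library. Neutrophil markers were also lower in these libraries, and their part was not tested. Sh3pxd2b, an adaptor of podosomes, was higher, at 34.2 and 53.9 against 274.8, 360.1 and 109.4 (2.34 ± 0.44, limma adjusted p = 0.0165, and 0.0997 in the fit to the 5 libraries).

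Transcripts listed as Lars2, the mitochondrial leucine-tRNA synthetase, varied more within groups than between them, at 36464 and 6514 normalised counts in wild-type, 17798, 5174 and 3299 in repopulating microglia and 9338, 15643 and 5081 in bone-marrow macrophages. Rn45s was also highest in wild-type replicate 1, at 176140 against 9117 to 26797 in the other 7 libraries. Neither passed the test between wild-type and repopulating microglia (limma adjusted p = 0.403 for Lars2 and 0.311 for Rn45s).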
